A study of Mus musculus with 6 samples.

Results

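Axon guidance ligands and receptors were taken as every gene on the array whose symbol is that of a semaphorin of class 3 to 7, a plexin, a neuropilin, an ephrin, an Eph receptor, a Slit, a Robo, netrin 1 or 4, or the netrin receptors Dcc, Neo1 and Unc5a to Unc5d. This gave 63 genes with 95 probes, of 17178 named genes and 41174 probes in all. The samples were dorsal root ganglia, which hold the cell bodies of sensory neurons and their glia, from mice at postnatal day 4. The mutants were 3 mice of genotype dt27J, which carry a mutant allele of the dystonin gene Dst, and the controls were 3 wild-type (WT) mice. Both genotypes had the C57BL/6 background, came from 2 litters, and are described in the labels as taken before the phenotype appears. Each animal was measured on 1 single-colour array. The labels carry 2 dates: dt27J 1, dt27J 2, WT 1 and WT 2 belong to the first, and dt27J 3 and WT 3 to the second. The sources used here do not tie the dates to the litters. Eif2s3y, a gene on chromosome Y, was well above background on dt27J 2, WT 1 and WT 2 only. Within WT, sex and date therefore cannot be told apart.

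Guidance genes encode cues and their receptors. Secreted semaphorins bind neuropilins, which signal through plexins, while membrane semaphorins mostly bind plexins directly. Ephrins are bound to the cell surface and signal through Eph receptor kinases, Slits signal through Robo receptors, and netrins attract growth cones through Dcc and neogenin or repel them through Unc5 receptors. In dorsal root ganglia these systems are known for steering the central and peripheral branches of sensory axons, and the same molecules act in blood vessels, glia and connective tissue.

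Values are log2 processed signals set against the 75th percentile of their array, so 0 is the 75th percentile of that array and a difference of 1 is a doubling. They compare 1 probe between arrays and not genes with each other. Of the 63 genes, 59 had a tested probe, meaning one that at least 1 genotype showed well above background on each of its 3 arrays. Epha10, Epha6, Ntn4 and Unc5d did not pass. The brightest tested probe stands for a gene, and a difference was called at an adjusted p under 0.05 (limma, Benjamini-Hochberg over 26248 tested probes). In whole ganglia, fewer cells of a type and less RNA per cell cannot be told apart.

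Of these 59 genes, 1 was higher in dt27J ganglia (Epha2) and 2 were lower (Sema4c and Sema6c). Over all named genes with a tested probe, 1.35% were called higher and 1.52% lower, and counts of 1 and 2 in 59 lie near these shares. By probe, 5 of 81 tested guidance probes were called, against 3.19% of all tested probes. Of these 5, 2 passed the filter on dim probes through the WT arrays alone and so had to differ, and nothing is read from the share. At an unadjusted p under 0.05 (limma), 24 of the 59 genes passed, against 3765 of all 13675 named genes. The same background applies to the counts at this threshold given for each role below. The median log2 fold of the 59 genes was -0.38, against -0.03 over all named genes. Of the 59 folds, 41 were below 0, against 7171 of 13675. Epha8, Sema4b and Sema3a entered the test through WT alone, so the filter favoured low dt27J values for them. Over the 56 genes whose probe was well above background on all 6 arrays, 24 had an unadjusted p under 0.05 (limma). That compares with 6606 of 24240 such probes in all. The median over the 56 genes was -0.34, against -0.03 over those probes. The calls lay close to the threshold: Epha2, Sema4c and Sema6c all lost theirs without the date term, without the filter on dim probes, and without any of WT 1 (adjusted p = 0.248 for each, limma), WT 2 or dt27J 1, while Epha2 and Sema4c also lost theirs without dt27J 2. All 3 were also lost with the replicate number as a block and with normexp background correction, which adds an offset of 50 to each corrected signal. That offset draws the folds of dim probes towards 0. The normexp run took local backgrounds as scanned, and these exceeded 100 at 47 spots of WT 3 and 6 of dt27J 3. Replacing those backgrounds, an alternative chosen after seeing the data, kept all 3 calls. Sema4c and Sema6c were lost when all tested probes of a gene were averaged, at -0.70 (adjusted p = 0.369, limma) and -1.43 (adjusted p = 0.0509, limma).

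The promoters of the 3 called genes and of Ephb1, whose difference turned round between the dates, are shown as the 250 bases before the RefSeq transcription start, on the gene's strand and in assembly GRCm38.p6. Capitals mark the GC box, searched as GGGCGG on both strands. The Epha2 window is chr4:141300971-141301220 (plus strand), the Sema6c window chr3:95160170-95160419 (plus strand), the Sema4c window chr1:36558382-36558631 (minus strand) and the Ephb1 window chr9:102354694-102354943 (minus strand). Sema6c and Sema4c have 2 listed starts each, and the most upstream is shown.
Epha2: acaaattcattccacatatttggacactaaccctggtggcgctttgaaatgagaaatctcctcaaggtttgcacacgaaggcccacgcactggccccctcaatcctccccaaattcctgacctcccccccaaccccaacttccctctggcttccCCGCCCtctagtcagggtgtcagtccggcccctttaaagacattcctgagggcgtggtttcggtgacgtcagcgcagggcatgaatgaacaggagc
Sema6c: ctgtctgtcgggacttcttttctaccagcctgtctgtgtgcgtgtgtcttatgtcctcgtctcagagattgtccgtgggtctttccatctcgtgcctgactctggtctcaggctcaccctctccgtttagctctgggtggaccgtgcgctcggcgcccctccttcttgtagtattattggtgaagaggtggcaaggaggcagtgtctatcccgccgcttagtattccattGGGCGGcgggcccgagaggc
Sema4c: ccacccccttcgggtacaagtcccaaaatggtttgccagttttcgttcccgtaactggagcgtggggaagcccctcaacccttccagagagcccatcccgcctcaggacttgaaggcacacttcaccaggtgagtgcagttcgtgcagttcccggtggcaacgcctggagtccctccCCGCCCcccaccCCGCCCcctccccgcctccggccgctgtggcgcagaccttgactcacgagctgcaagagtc
Ephb1: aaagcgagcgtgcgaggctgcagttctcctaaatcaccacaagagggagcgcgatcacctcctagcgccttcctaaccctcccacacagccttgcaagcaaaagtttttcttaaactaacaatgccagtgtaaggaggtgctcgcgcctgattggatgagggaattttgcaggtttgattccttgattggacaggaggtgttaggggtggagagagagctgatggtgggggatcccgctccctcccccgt
The GC box was found in 1 copy before Epha2, 1 before Sema6c and 2 before Sema4c, and was not found before Ephb1. It was present in 32.7% of 32851 promoter windows of the same length and in 68.8% of the 64 windows matched to 50 guidance genes. These shares were not adjusted for GC content. That content was 55.6% for Epha2, 57.6% for Sema6c, 64.4% for Sema4c and 54% for Ephb1, against a median of 52.4% over all windows. The CCAAT box, searched as CCAAT on both strands, had 2 matches before Sema6c, 1 of which shares 2 bases with the GC box, and 2 before Ephb1. A match was present in 33.8% of all windows and in 28.1% of the guidance windows. No window of the 4 held TATAAA on either strand, which was present in 12.4% of all windows and 3.1% of the guidance windows. A match describes these letters and not a bound site.

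**Figure D1:**
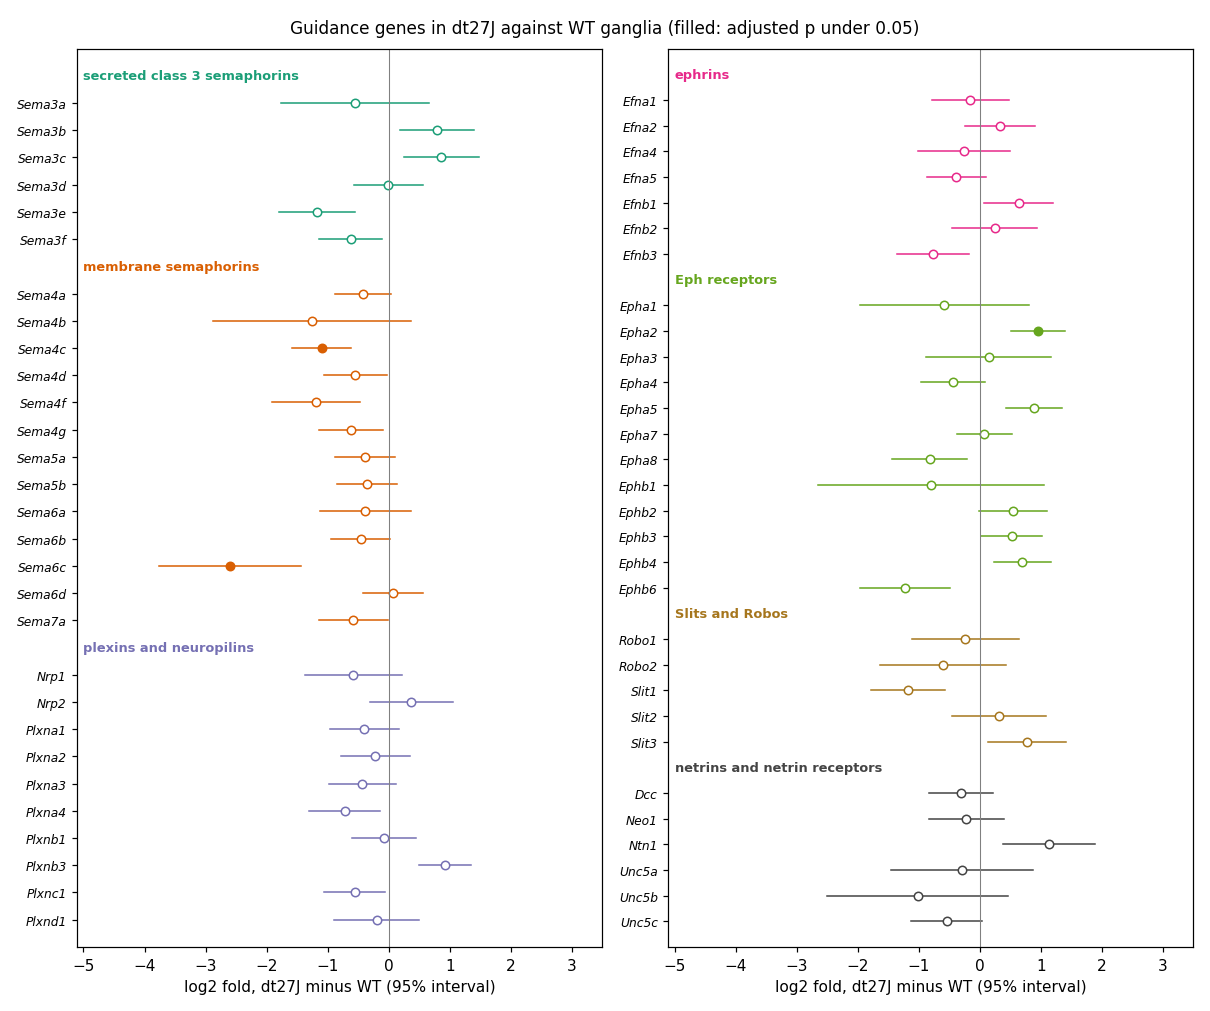
Log2 fold of each of the 59 guidance genes by its brightest tested probe, dt27J minus WT, with the 95% interval of the limma fit, grouped by role; filled points have an adjusted p under 0.05. Membrane semaphorins lie below 0 in 12 of 13 cases, while Eph receptors lie on both sides.

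The labels were first checked on Dst. Its brightest probe was lower in dt27J ganglia, with a log2 fold of -2.68 (SE 0.26, adjusted p = 0.0341, limma), at 15.6% of the WT signal. The part of Dst that the allele changes is not named in the labels. Marker lists of other cells also differed between arrays. The 9 tested sensory neuron markers had a median fold of -0.75. Their summed linear signals, in units of the 75th percentile, ranged from 444 to 585.2 in dt27J and from 585.0 to 725 in WT. By these sums the genotypes overlapped slightly, with dt27J 2 just above WT 2. All 9 were well above background on all 6 arrays. These sums are weighted towards the brightest probe, Uchl1, whose fold was -0.26 (SE 0.24). The 8 endothelial markers had a median of 0.78, with 1 called higher (Tek), and sums from 16.69 to 33.80 in dt27J and from 12.99 to 17.99 in WT. The 8 skeletal muscle markers had a median of 1.95, with 4 called higher. Medians were 0.92 for fibroblasts and meninges, 0.86 for dividing cells, 0.32 for macrophages, 0.14 for Schwann cells and -0.01 for satellite glia. The 9 tested spinal cord markers summed to between 0.891 and 1.06 on the dt27J arrays, and in WT to 27.7, 21.5 and 1.74 on the arrays of the 3 animals in order. These sums are weighted towards the brightest probe, Gpr17. Olig1, Pax2 and Slc1a2 of this list entered the test through WT alone.

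**Figure D2:**
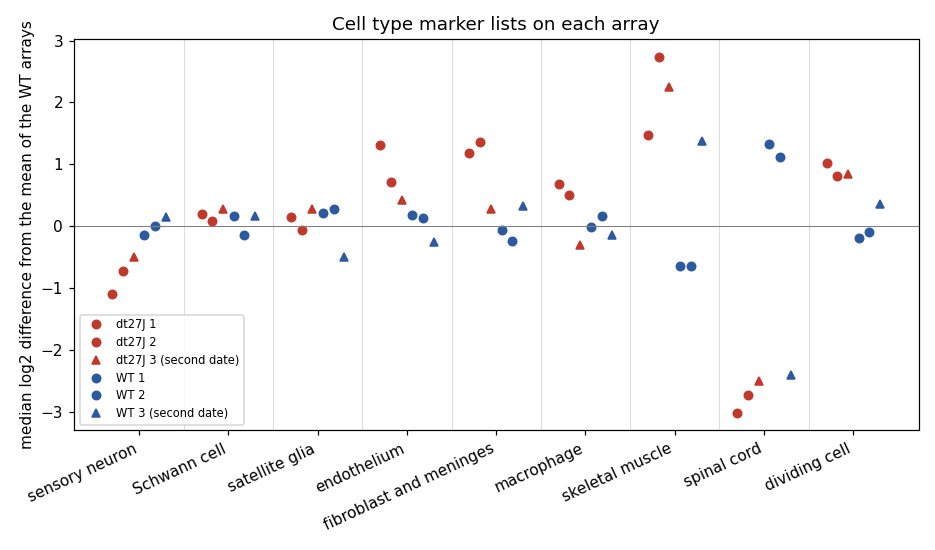
Median over each marker list of the log2 difference from the mean of the WT arrays, for each array; circles are arrays of the first date and triangles of the second, red is dt27J and blue WT. The spinal cord list stands high on WT 1 and WT 2 alone, and the sensory neuron list lies lower on all 3 dt27J arrays than on any WT array.

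Among the cues, the membrane semaphorins held both genes called lower. Of 13 tested members, 2 were called lower, against 1.52% of all named genes, and nothing is read from so small a count. None was called higher, and 6 had an unadjusted p under 0.05 (limma). Folds were below 0 for 12 members, with a median of -0.55. That median was -0.61 within the first date and -0.34 within the second, and lay between -0.67 and -0.30 under the alternatives tried. Sema4b entered the test through WT alone. Over the 12 members well above background on all 6 arrays, 11 folds were below 0, with a median of -0.50. The 9 sensory neuron markers, with a median of -0.75, and the 9 tested spinal cord markers, with a median of -2.80, all had folds below 0. Within the second date these medians were -0.60 and -0.09. Medians of the other lists are given above. The part of any list in this group was not tested.

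Sema6c, a transmembrane semaphorin of class 6, had values of -5.18, -3.14 and -3.60 on the dt27J arrays and -1.52, -1.58 and -1.03 on the WT arrays. The genotypes did not overlap, and dt27J 1 was the lowest of the 6. The fold was -2.60 (SE 0.49, 6.05-fold lower, adjusted p = 0.0478, limma), with -2.61 within the first date and -2.58 within the second. A dimmer Sema6c probe did not pass, at -0.26 (SE 0.25, adjusted p = 0.525, limma), so the 2 probes of the gene disagree in size. Without dt27J 1 the fold of the brighter probe was -2.01 (adjusted p = 0.171, limma), and with normexp background correction it was -0.94 (adjusted p = 0.0923, limma). The normexp offset draws folds of dim probes towards 0, so the size of -0.94 cannot be set directly against the main fit.

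Sema4c, a class 4 semaphorin that binds plexin B receptors, had values of -2.64, -2.23 and -1.59 in dt27J and -1.38, -1.30 and -0.47 in WT. The genotypes did not overlap, and in both the array of the second date was the highest. The fold was -1.10 (SE 0.20, 2.14-fold lower, adjusted p = 0.0472, limma), with -1.09 and -1.12 within the 2 dates. A second Sema4c probe gave -0.30 (SE 0.98), with dt27J values of -1.79, -5.54 and -0.31 that spread around the WT values of -2.22, -2.77 and -1.76. With normexp background correction and its offset the first probe stood at -0.58 (adjusted p = 0.106, limma).

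Dimmer probes of Sema5a and Sema6a each cleared the background on the 3 WT arrays and on none of the dt27J arrays. They entered the test through WT alone and so had to differ, which makes their adjusted p a description with no weight as a test. Only a bound can be given for them. The Sema5a probe read -6.71, -7.13 and -6.51 in dt27J and -5.11, -4.89 and -5.61 in WT, which makes it at least 1.42-fold lower in dt27J (adjusted p = 0.0472, limma). The Sema6a probe read -6.89, -5.88 and -7.16 in dt27J and -4.37, -4.37 and -4.95 in WT, at least 2.22-fold lower in dt27J (adjusted p = 0.0413, limma). Neither probe's genotypes overlapped. The brightest probes of these genes gave -0.39 (SE 0.21) for Sema5a, which both repels and attracts axons, and -0.38 (SE 0.31) for Sema6a, and neither was called. With normexp background correction, whose offset draws folds of dim probes towards 0, these probes gave -0.14 for Sema5a and -0.26 for Sema6a. No guidance gene had more than 1 called probe.

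Sema4f, a class 4 semaphorin, had values of 0.48, 0.64 and 2.11 in dt27J and 2.05, 2.31 and 2.44 in WT. The dt27J arrays of the first date were low and dt27J 3 lay among the WT arrays. The fold was -1.19 (SE 0.30, adjusted p = 0.0695, limma), with -1.62 within the first date and -0.34 within the second. Sema4g gave -0.61 (SE 0.22) with no overlap between the genotypes, Sema7a, which is anchored in the membrane by a lipid and promotes axon growth, gave -0.58 (SE 0.24), and Sema4d gave -0.55 (SE 0.22). Sema4b, well above background on 1 of 3 dt27J arrays, differed by -2.36 within the first date and by 0.94 within the second. Sema6b, Sema4a and Sema5b lay between -0.46 and -0.36, and Sema6d was the 1 member above 0, at 0.07. Sema5b had 2 further probes of opposite sign, at -0.21 and 0.66, so its direction depends on the probe.

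The secreted class 3 semaphorins had no called member among 6 tested (limma; 4 had an unadjusted p under 0.05), and their folds ran in both directions, with a median of -0.28. That median was 0.11 without dt27J 1, -0.43 without WT 3 or dt27J 3, and -0.01 over probes well above background on all 6 arrays, so the group has no settled direction. Sema3e, which signals through plexin D1 without a neuropilin, had values of -1.38, -1.19 and -0.80 in dt27J and 0.32, 0.12 and -0.28 in WT. The genotypes did not overlap, and they lay closest on the second date. The fold was -1.18 (SE 0.26, adjusted p = 0.0576, limma), with -1.51 within the first date and -0.52 within the second. A second tested Sema3e probe gave -0.76 (SE 0.26), the same direction.

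Sema3b and Sema3c lay on the other side. Sema3c had values of -1.22, -0.88 and -1.93 in dt27J and -1.67, -2.38 and -2.57 in WT. Only dt27J 3 lay within the WT range, and the fold was 0.86 (SE 0.26, adjusted p = 0.0931, limma). Sema3b had values of 3.72, 3.39 and 2.97 in dt27J and 2.35, 2.60 and 2.75 in WT, with no overlap and a fold of 0.79 (SE 0.26, adjusted p = 0.108, limma). In 4 marker lists every gene had a pooled fold above 0. Medians were 0.78 for 8 endothelial markers, 0.92 for 8 of fibroblasts and meninges, 1.95 for 8 of skeletal muscle and 0.86 for 6 of dividing cells. Within the second date these medians were 0.70, -0.05, 0.72 and 0.46. Folds above 0 were 5 of 6 for macrophages, 4 of 7 for Schwann cells and 2 of 5 for satellite glia. For sensory neurons and for spinal cord they were 0 of 9 each. The part of any list in the values of Sema3b and Sema3c was not tested. Sema3f, a repellent that acts through neuropilin 2, gave -0.62 (SE 0.22) by its brightest probe and 0.12 (SE 0.26) by the other. Sema3a, the classic repellent of sensory growth cones, was well above background on 2 of 3 dt27J arrays and gave -0.55 (SE 0.51), with -1.26 within the first date and 0.86 within the second. Sema3d gave -0.01 (SE 0.24, 95% interval -0.58 to 0.57).

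Of the receptors for semaphorins, none of 10 tested plexins and neuropilins was called (limma; 3 had an unadjusted p under 0.05), and 8 folds were below 0, with a median of -0.31 that was -0.17 with normexp. Plxnb3, a B-class plexin that binds Sema5a, was nearest to the threshold. Its values were 2.44, 2.51 and 2.05 in dt27J and 1.51, 1.53 and 1.20 in WT, so the genotypes did not overlap. The fold was 0.92 (SE 0.18, 1.89-fold, adjusted p = 0.0503, limma), with 0.96 and 0.85 within the 2 dates. The call depended on the setting. Plxnb3 was called with quantile normalization (adjusted p = 0.0467, limma), with the authors' values (adjusted p = 0.0386, limma), with both forms of normexp, with means over probes, with array weights, over probes well above background on all 6 arrays, and without WT 3 or dt27J 3. It was not called without the date term, without the filter on dim probes, with the replicate block, or without WT 1 (adjusted p = 0.248, limma), WT 2, dt27J 1 or dt27J 2. The gene lies on chromosome X, and the sexes were not balanced: Xist, which is transcribed in females, was well above background on dt27J 1, dt27J 3 and WT 3 only. On the second date, with 1 array of each genotype, both animals gave a Xist signal and Plxnb3 differed by 0.85. The part of sex in this value was not tested.

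Plxna4, a co-receptor for class 3 semaphorins, had values of 2.23, 2.74 and 2.05 in dt27J and 2.94, 3.04 and 3.19 in WT. All dt27J arrays lay below the WT arrays, and the fold was -0.72 (SE 0.24, adjusted p = 0.12, limma). A second Plxna4 probe gave -0.77 (SE 0.21), close to the first. Plxnc1, a receptor of Sema7a, had values of 1.99, 1.96 and 2.40 in dt27J and 2.83, 2.58 and 2.61 in WT, also without overlap, and a fold of -0.56 (SE 0.21, adjusted p = 0.149, limma). Plxna3, Plxna1, Plxna2, Plxnd1 and Plxnb1 lay between -0.44 and -0.07.

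The 2 neuropilins differed in sign without being called. Nrp1, which binds Sema3a, gave -0.58 (SE 0.33, 95% interval -1.37 to 0.21), and its second probe gave -0.51 (SE 0.26). Nrp2, which binds Sema3f, gave 0.37 (SE 0.29, 95% interval -0.31 to 1.05), with 0.72 within the first date and -0.34 within the second.

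The ephrins had no called member among 7 tested (limma; 2 had an unadjusted p under 0.05), with a median of -0.16. The median was 0.03 without dt27J 2 and -0.30 without WT 3 or dt27J 3. Efnb3, a transmembrane ephrin, had values of -0.56, -0.26 and -0.14 in dt27J and 0.47, 0.76 and 0.11 in WT. The genotypes did not overlap, and the fold was -0.77 (SE 0.25, adjusted p = 0.107, limma). Efnb1, another transmembrane ephrin and on chromosome X, had values of 4.50, 4.62 and 3.88 in dt27J and 3.78, 3.53 and 3.76 in WT, with a fold of 0.64 (SE 0.24, adjusted p = 0.146, limma). Its arrays did not overlap either, but the second date differed by 0.11 and the first by 0.90. The part of sex in the Efnb1 values was not tested.

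Of the lipid-anchored ephrins, Efna5 had values of 1.35, 1.75 and 2.23 in dt27J and 1.96, 2.03 and 2.51 in WT. These overlapped, and the fold was -0.39 (SE 0.20, adjusted p = 0.265, limma). A dimmer Efna5 probe gave -0.66 (SE 0.27), the same direction. Efna2, Efna1, Efna4 and the endothelial ephrin Efnb2 lay between -0.26 and 0.33.

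Among the Eph receptors, Epha2 was the 1 guidance gene called higher, and 6 of 12 tested had an unadjusted p under 0.05 (limma). Of 12 tested receptors, 7 folds were above 0 and 5 below, with a median of 0.11; that median was -0.05 with normexp background correction, -0.06 for means over all tested probes and -0.11 within the first date. Epha2, a receptor for ephrin-A ligands known in epithelium and vessels, had values of 0.79, 0.86 and 1.06 in dt27J and -0.20, -0.19 and 0.23 in WT. The lowest dt27J array lay above the highest WT array. The fold was 0.95 (SE 0.18, 1.94-fold, adjusted p = 0.0494, limma), with 1.02 within the first date and 0.83 within the second.

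Epha5, an ephrin-A receptor of neurons, had a fold of similar size and was not called. Its values were 0.31, 0.32 and 0.25 in dt27J and -0.45, -0.76 and -0.57 in WT. The dt27J arrays were close together and all above the WT arrays, and the fold was 0.89 (SE 0.19, adjusted p = 0.0572, limma). A dimmer Epha5 probe gave 0.81 (SE 0.37). The ephrin-B receptors Ephb4, known from veins, Ephb2 and Ephb3 also showed no overlap, at 0.70 (SE 0.20), 0.55 (SE 0.23) and 0.52 (SE 0.21), and none was called.

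Ephb6, an Eph receptor without kinase activity, lay on the other side. Its values were -2.75, -3.14 and -1.58 in dt27J and -1.90, -1.04 and -0.85 in WT. Only dt27J 3 overlapped with WT, and the fold was -1.23 (SE 0.31, adjusted p = 0.0684, limma). Epha8, well above background on 1 of 3 dt27J arrays, gave -0.82 (SE 0.26), and Epha4, a receptor for both ephrin classes, gave -0.44 (SE 0.22). Epha1 gave -0.58 (SE 0.58) and Epha3 0.14 (SE 0.43), both with wide spread between arrays. Epha7 gave 0.08 (SE 0.19) by its brightest probe and -0.63 (SE 0.28) by the other.

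**Figure D3:**
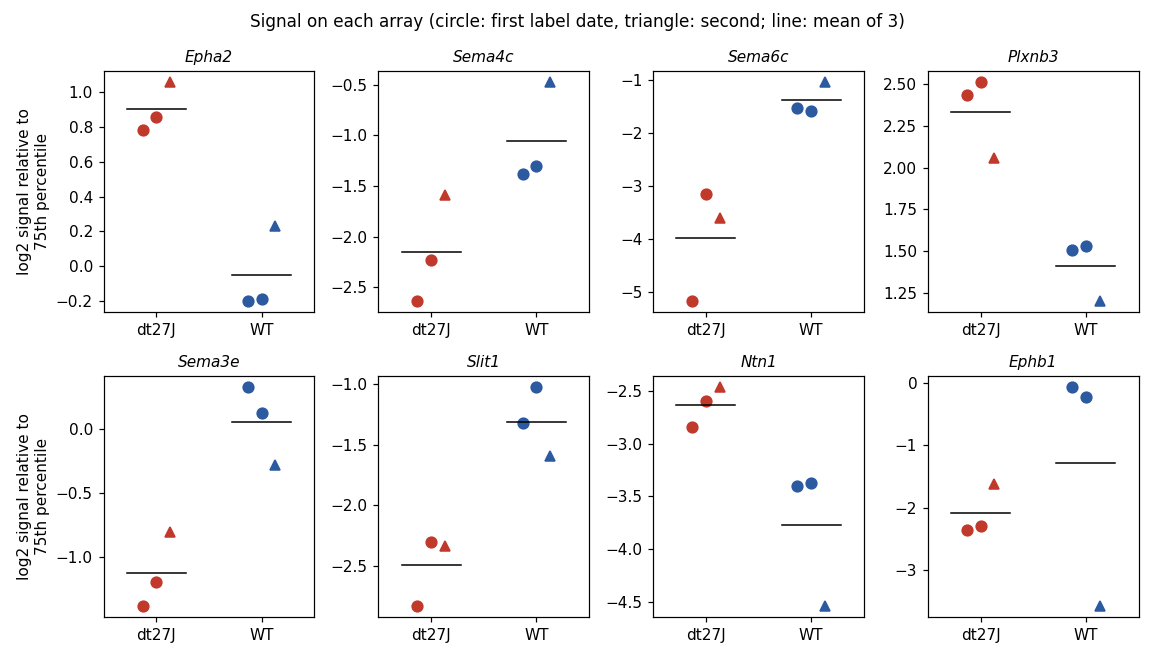
Log2 signal relative to the array's 75th percentile on each array for 8 guidance genes, dt27J in red and WT in blue; circles are the first date, triangles the second, and lines the mean of 3 arrays. Epha2, Sema4c, Sema6c, Plxnb3, Sema3e, Slit1 and Ntn1 separate the genotypes, and for Ephb1 the array WT 3 lies below all dt27J arrays while WT 1 and WT 2 lie above them.

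No Slit or Robo was called among 5 tested genes (limma; 2 had an unadjusted p under 0.05). Slit1, a secreted repellent made by neurons, had values of -2.83, -2.30 and -2.33 in dt27J and -1.32, -1.02 and -1.59 in WT. All dt27J arrays lay below all WT arrays, and the fold was -1.18 (SE 0.25, 2.26-fold lower, adjusted p = 0.0568, limma). Slit3, which is also made by vessels and connective tissue, had values of -0.29, 0.09 and -1.22 in dt27J and -1.08, -1.31 and -1.37 in WT, and a fold of 0.78 (SE 0.27, adjusted p = 0.123, limma). Its genotypes overlapped through dt27J 3.

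Robo2, a Slit receptor of sensory axons, had values of -3.55, -4.17 and -2.41 in dt27J and -2.26, -3.07 and -2.98 in WT. These overlapped, and the fold was -0.61 (SE 0.43), with -1.19 within the first date and 0.57 within the second. A dimmer Robo2 probe cleared the background on the 3 WT arrays and on none of the dt27J arrays, which bounds it as at least 2.07-fold lower in dt27J (adjusted p = 0.0514, limma). This probe too entered the test through WT alone, so its p is no support. Robo1 gave -0.24 (SE 0.37) and also differed in sign between the dates. Slit2, which makes sensory axons branch, gave 0.32 (SE 0.32) and 0.67 (SE 0.23) on its 2 probes.

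Of the netrins and their receptors, none of 6 tested genes was called (limma; 1 had an unadjusted p under 0.05), and 5 folds were below 0, with a median of -0.30 that was -0.12 without WT 3 or dt27J 3. Ntn1, the ligand netrin 1, was the 1 member above 0. Its values were -2.85, -2.59 and -2.47 in dt27J and -3.40, -3.37 and -4.54 in WT. All dt27J arrays lay above all WT arrays, and the fold was 1.14 (SE 0.32, adjusted p = 0.0821, limma), with 0.67 within the first date and 2.07 within the second.

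The receptor Unc5b had values of 0.22, 0.31 and -2.25 in dt27J and 1.1, -0.37 and 0.61 in WT. The array dt27J 3 stood apart from all others, and the fold was -1.02 (SE 0.62). Unc5c had values of -3.39, -2.97 and -2.35 in dt27J and -2.47, -2.30 and -2.29 in WT, with a fold of -0.55 (SE 0.25, adjusted p = 0.205, limma). Dcc, the receptor through which netrin 1 attracts axons, gave -0.31 (SE 0.22) with overlapping genotypes. Unc5a differed by 0.49 within the first date and by -1.87 within the second. Neo1, the receptor neogenin, gave -0.22 (SE 0.26) by its brightest probe and 0.26 (SE 0.32) by the other.

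Over the 59 genes, the 3 dt27J arrays lay above the 3 WT arrays for 9 genes and below them for 10. Over all named genes these shares were 13.6% above and 16.3% below, so the guidance genes separated the genotypes about as often as other genes. By role, 5 of the 9 were Eph receptors and 4 of the 10 were membrane semaphorins. Of 20 genes with several tested probes, 4 had probes of opposite sign: Epha7, Neo1, Sema3f and Sema5b.

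The sign of the difference was the same in both dates for 40 of the 59 genes, against 7771 of 13675 named genes. The date term itself was called for 0 of 81 guidance probes (limma). Its calls over all tested probes were not counted, so nothing is read from that 0. At an unadjusted p under 0.05 (limma), 12 guidance probes (14.8%) passed for date, against 15.3% of all tested probes. The interaction of genotype and date was called for 1 of 81 guidance probes, against 0.831% of all tested probes, and 23 guidance probes (28.4%) had an unadjusted p under 0.05, against 27.5% of all tested probes.

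That probe was Ephb1, an ephrin-B receptor. Its values were -2.35, -2.29 and -1.62 in dt27J and -0.06, -0.22 and -3.59 in WT. The arrays WT 1 and WT 2 were high and WT 3 was the lowest of all 6. The genotype difference was -2.18 within the first date and 1.97 within the second, which has 1 array per genotype, a change of 4.15. The interaction fit takes its spread between animals from the first date alone. Its call for this probe therefore does not measure how far animals of the second date vary. The pooled fold was -0.80 (SE 0.78). The spinal cord markers showed the same order among the WT arrays, with sums of 0.891 to 1.06 in dt27J and of 27.7, 21.5 and 1.74 in WT, and with median folds of -4.15 within the first date and -0.09 within the second. Eif2s3y, on chromosome Y, read 1.69, 1.67 and -8.20 on WT 1, WT 2 and WT 3, so sex goes with date within WT. The part of the spinal cord markers and of sex in the Ephb1 result was not tested.

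**Figure D4:**
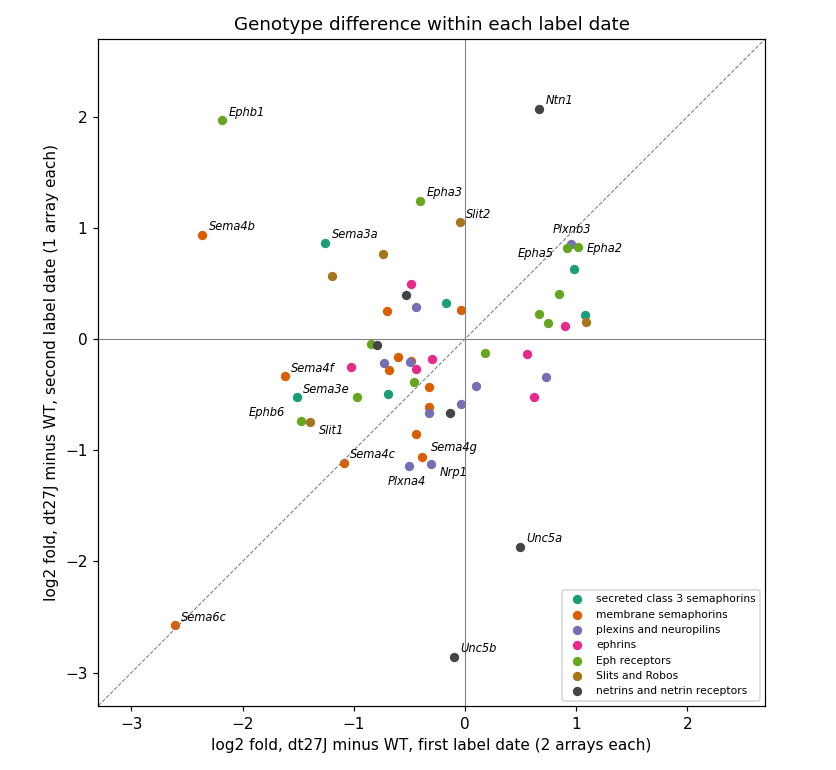
Log2 fold of each of the 59 guidance genes, dt27J minus WT, within the first date (horizontal, 2 arrays per genotype) against the second date (vertical, 1 array per genotype), coloured by role; the dashed line marks equal differences. Sema6c, Sema4c, Epha2, Epha5 and Plxnb3 lie near that line, and Ephb1 lies far from it, at -2.18 and 1.97.

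Genes that act downstream of the receptors were described through a list of 48, of which 46 were tested. Of these, 1 was called higher in dt27J and 1 lower, against 1.35% and 1.52% of all named genes. The median was 0.02, with 23 folds on each side of 0. At an unadjusted p under 0.05 (limma), 19 of the 46 passed, against 3765 of 13675 named genes. The genotypes did not overlap for 6 genes higher in dt27J and 11 lower, against 13.6% and 16.3% of all named genes. Nck2, an adaptor that links guidance receptors to the actin cytoskeleton, had values of 1.15, 1.17 and 0.61 in dt27J and -0.05, -0.26 and -0.38 in WT. The genotypes did not overlap, and the fold was 1.21 (SE 0.19, adjusted p = 0.0450, limma).

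Chn2, a chimaerin that inactivates Rac, had values of -1.28, -1.36 and -1.24 in dt27J and -0.01, -0.19 and -0.49 in WT. These did not overlap either, and the fold was -1.06 (SE 0.20, adjusted p = 0.0491, limma). Of the collapsin response mediators, which carry semaphorin signals to microtubules, Dpysl5 gave -1.86 (SE 0.49) and Dpysl4 -0.71 (SE 0.18), and neither was called. Dpysl5 differed by -2.66 within the first date and by -0.27 within the second. The actin-binding protein Ablim3 gave -0.91 (SE 0.23).

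Of 20 other cues and adhesion receptors, 18 were tested and none was called (limma), against 1.35% called higher and 1.52% lower of all named genes. At an unadjusted p under 0.05 (limma), 3 of the 18 passed, against 3765 of 13675 named genes. The adhesion molecules L1cam and Cntn2, which serve as co-receptors on sensory axons, gave -1.24 (SE 0.30, adjusted p = 0.0662, limma) and -1.25 (SE 0.48). Cdon gave 0.79 (SE 0.32), Rgma, a ligand of neogenin, -0.47 (SE 0.20), and Flrt2 -0.77 (SE 0.35). Cntn2 differed by -1.89 within the first date and by 0.03 within the second.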

How the data were processed

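Total RNA of 6 animals, 3 per genotype, was labelled with Cy3 from 300 ng, per the labels' protocols. The deposited scanner intensities came from Agilent Feature Extraction 10.5.1.1 (submitters' processing notes, also per the file headers), with background subtracted within each array and no normalization between arrays. The authors' deposited log2 values, found to be centred on each probe and rising with the scanner log2 values with slopes of 0.93 to 0.98 (9923 bright probes), served as an alternative; the sources used here do not give their normalization.

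Control spots and outlier spots were left out, spots of a probe were averaged on the log2 scale, and the array's 75th percentile over all non-control spots (signals of 369.5 to 580) was subtracted. This percentile was taken after the counts with and without outlier spots had been seen (838 and 842 called probes). An array showed 63.1% to 71.4% of its probes well above background, and none was saturated. The number of arrays limits the precision. Probes were named through accessions in RefSeq's GRCm38.p6 table (24844 of 41174), which also gave the promoters; the array was annotated on another build, so no probe coordinates are given. Efna3, Plxnb2, Robo3 and Sema3g had no matched probe.

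Probes were tested with limma 3.58.1 in R 4.3.3, with genotype and date as terms (3 residual degrees of freedom, 3.74 from the prior), and the fit was tested on simulated data. Where a genotype had no array well above background for a probe, the bound uses, per array, the higher of its own value and the lowest value well above background. Every guidance gene could be named, array values were given for called genes and the 3 with the smallest p in each role, and for the other lists the 5 with the smallest p. The array values of Ephb1 are given because of its interaction. Members and lists were chosen with earlier results of these data known. The replicate numbers were not used as pairs in the main fit. Deviations of same-numbered arrays correlated at 0.22, -0.15 and 0.06. These 3 values cannot exclude a pairing. The arrays of replicate 3 make up the second date, so the check gives the date term no more support than a pairing.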

Additional observations from a re-analysis of the deposited data

Results flagged for a closer look

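The genotype difference in Ephb1 changed between the dates by 4.15 on the log2 scale. It was -2.18 within the first date and 1.97 within the second, with 1 array per genotype in the second. Spread between animals of the second date is therefore not measured. The dt27J values were -2.35, -2.29 and -1.62, and the WT values were -0.06, -0.22 and -3.59, with WT 3 the lowest of all 6 arrays. The summed spinal cord markers were 1.06, 0.891 and 0.957 on the dt27J arrays and 27.7, 21.5 and 1.74 on the WT arrays. Within WT, sex also goes with date. The part of these markers and of sex was not tested.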

How the results depend on the processing

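The count of 3 called guidance genes, beside 838 called probes and 2 called downstream genes, depended on the processing. It was 0 (14 probes, 0 downstream) without the date term, 1 (Plxnb3, which is none of the 3; 384 probes, 0 downstream) with normexp background correction, and 0 (0 probes, 0 downstream) without a filter on dim probes. It was 7 (1442 probes, 5 downstream) with normexp after high local backgrounds had been replaced, an alternative chosen after seeing the data, and 6 with the authors' values. The backgrounds replaced were those over 100, at 47 spots of WT 3 and 6 of dt27J 3, and the 7 included all 3 genes. Means over all tested probes of a gene gave 3, of which Epha2 was shared and Plxnb3 and Sema6a were not. Array weights gave 35 (12199 probes, 30 downstream), but their estimate did not converge and put a weight of 67.4 on WT 1. The first date alone gave 18 (6805 probes, 13 downstream). Leaving out 1 array gave 0 to 18 guidance genes, 0 to 6805 probes and 0 to 13 downstream genes. The upper ends came without WT 3 or dt27J 3, where the date term absorbs the lone array and the fit equals that of the first date. The counts were 0, 0 and 0 guidance genes without WT 1, WT 2 or dt27J 1, and 1 (Sema6c) without dt27J 2. With the replicate number as a block, a pairing that the data could not settle, the counts were 0 guidance genes, 2 probes and 0 downstream genes. The percentile without outlier spots, tried first, gave 842 probes and the same 3 genes.

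The median fold of the guidance genes, -0.38, was below 0 under every alternative run: -0.21 with normexp, -0.20 with high backgrounds replaced, -0.24 with the authors' values, -0.31 for means over probes, and -0.40 to -0.30 without 1 array. Of 1059 values of the 59 genes under 18 alternatives, 32 changed sign, in 14 genes: Unc5a under 5 alternatives, Epha3, Plxnb1, Sema3d and Sema6d under 4 each, Slit2 under 3, and 8 genes under 1 each. Unc5a stood at 0.20 with normexp, 0.42 with array weights and 0.49 within the first date, Slit2 at -0.047 and Sema6d at -0.031 within the first date, and means over probes gave -0.27 for Epha7, 0.032 for Sema5b and 0.018 for Neo1. Without 1 array, the folds ranged over Unc5a -0.72 to 0.49, Slit2 -0.047 to 0.65, Sema6d -0.031 to 0.19, Robo1 -0.74 to 0.11 and Sema3a -1.26 to 0.016.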
